A study of Saccharomyces cerevisiae with 40 samples.

Results

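The seripauperin genes (PAU) and their relatives DAN and TIR were represented by 28 of the 9275 probe sets that are not controls, chosen because the platform annotation gives them at least one PAU, DAN or TIR symbol. They cover 30 genes, of 5923 genes named on the array and the same 30 that the R64 gene table lists: 24 PAU genes, DAN1, DAN4 and TIR1 to TIR4. Only 16 of the probe sets belong to 1 gene (10 PAU, 2 DAN and 4 TIR). The other 12 are shared by up to 8 PAU genes, so that 14 PAU genes have no probe set of their own, and 21 of the 28 carry the suffix that the manufacturer gives to probe sets of a sequence family. Probe sets of PAU genes therefore share targets and are not independent measurements of separate genes, also where the annotation names 1 gene.

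The study put NMD2 back into cells that lack it and followed RNA abundance on 40 Affymetrix arrays. Both strains carry the disruption nmd2::HIS3 in the host HFY1400 and a URA3 plasmid. In GAL-NMD2 the plasmid holds NMD2 under the galactose-inducible GAL1 promoter, and in nmd2D it is empty. Each strain was sampled at 0, 10, 20, 40 and 60 min of galactose with 4 biological replicates, in raffinose medium without uracil per the series design, whereas the growth protocol names galactose medium. Further genotype and the number of transformants are not given in the labels. Values are MAS5 signal intensities, a linear brightness per probe set that the authors scaled to one mean per array, and errors are SD over 4 replicates unless called standard errors (SE). Log2 differences are on the scale of log2(signal + 16), which understates changes of dim probe sets, and levels of different probe sets cannot be set against each other.

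Nonsense-mediated decay degrades mRNAs on which ribosomes stop too early, and Nmd2 (Upf2) joins the helicase Upf1 to its partner Upf3. PAU genes form one of the largest gene families of budding yeast, lie mostly near chromosome ends and encode small proteins related to the serine-rich Tir proteins but poor in serine. TIR and DAN genes encode mannoproteins that are anchored in the cell wall. All of these genes are known for expression without oxygen or in the cold and for repression in air, through regulators such as Rox1, Mot3, Upc2 and the Tup1-Cyc8 corepressor.

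The strains were checked first. NMD2 signal in GAL-NMD2 went from 1038 ± 177 at 0 min to 1654 ± 212 at 60 min, when nmd2D read 889 ± 132 (log2 0.89, limma adjusted p = 2.59e-05). The change since 0 min differed between the strains by log2 0.69 (limma adjusted p = 0.0485, and 0.0023 with the replicate number as a block). The probe set read 895 ± 34.9 at 0 min in nmd2D, so it is a weak check of the deletion, and the source of that signal was not tested. URA3, the plasmid marker, differed between the strains: at 0 min it read 317 ± 119 in GAL-NMD2 where nmd2D read 1305 ± 969 (log2 -1.82, limma adjusted p = 1, and 0.0309 with the replicate number as a block). At 60 min the values were 319 ± 105 and 1502 ± 939.7 (log2 -2.07, adjusted p = 0.00371). HIS3, the disruption marker, started at 1655 ± 495 and 1655 ± 528 and read 1039 ± 503 and 1659.6 ± 489 at 60 min (log2 -0.80, adjusted p = 0.358, and 0.000425 with the block). The part of these marker differences in the results was not tested. GAL1, the galactokinase gene, went from 85.9 ± 14.2 to 3155 ± 658 within the hour in nmd2D and from 108 ± 48.5 to 3662 ± 1106 in GAL-NMD2. The median signal of an array was between 61.2 and 86 over the 40 arrays. At 60 min its mean was 65.6 ± 3.74 in GAL-NMD2, where nmd2D had 81.7 ± 3.18, so it moved with the groups compared there. One array stood apart in this: GAL-NMD2 replicate 2 at 20 min had a median signal of 84.3, the highest of its group, whose lowest was 63.6.

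Signal of the PAU family fell after NMD2 was switched on. At 60 min all 22 PAU probe sets were lower in GAL-NMD2 than in nmd2D by limma's test over the 7420 probe sets that passed the filter on dim signal (adjusted p under 0.05), where 11.9% of all probe sets were called lower. Their median difference was log2 -1.09, against -0.05 over all probe sets, and their range -2.05 to -0.63. Before galactose the same probe sets were close in both strains, between log2 -0.28 and 0.08. The design asks how far the change since 0 min differs between the strains (GAL-NMD2 minus nmd2D), called the interaction below. For it 12 of the 22 PAU probe sets were called lower at 60 min and 0 higher, against 3.91% of all probe sets called lower and 0.0135% higher, with a median of log2 -0.99. With the replicate number as a block, 21 were called lower, where the share of all probe sets was 9.7%. The block takes in the pairing of same-numbered arrays, which the fit without it ignores. A call missing in the fit without the block is thus no sign that a change is absent. After each array was centred on its median, which shifts the median of all interactions from -0.01 to 0.16, all 22 remained below 0 and 4 were called. Leaving out GAL-NMD2 replicate 3 gave 6 calls, leaving out nmd2D replicate 2 also 6, and leaving out nmd2D replicate 4 gave 7. A culture here stands for all arrays of 1 strain with the same replicate number, though the labels do not say that these share a culture. The shares of all probe sets called after median centring or without a culture are not given. A loss of calls particular to PAU cannot be told apart from a general one.

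PAU7 showed the largest fall among the members. In GAL-NMD2 its signal was 415, 513, 433 and 348 in replicates 1 to 4 at 0 min and 92.6, 138, 76.6 and 113 at 60 min. In nmd2D it was 464, 500, 481 and 519 at 0 min and 417, 582, 430 and 493 at 60 min. Every GAL-NMD2 array at 60 min was thus below the lowest of the 20 nmd2D arrays, which read 308. The mean over GAL-NMD2 replicates went from 427 ± 67.6 at 0 min and 478 ± 105 at 10 min to 268 ± 68.6, 140.5 ± 26.9 and 105 ± 26.7 at 20, 40 and 60 min. The last value is 21.9% of the nmd2D mean at that time (log2 -2.05, SE 0.20, limma adjusted p = 2.11e-09). The interaction was log2 -1.51 at 40 min (adjusted p = 0.00157) and -1.84 at 60 min (SE 0.28, adjusted p = 5.2e-05), and the latter call held under all 18 alternatives. A second probe set, annotated to both PAU7 and PAU5, gave an interaction of log2 -1.63 (SE 0.38, adjusted p = 0.00816), the second largest among the members.

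PAU19 and PAU15 had the smallest standard errors among members of 1 gene. PAU19, the outermost protein-coding gene of its chromosome end in the R64 order, read 216, 225, 203 and 194 at 0 min and 78.6, 109.6, 76.1 and 95.4 at 60 min in GAL-NMD2. In nmd2D it stayed between 180 and 271 over all 20 arrays, with a median of 243. Its interaction was log2 -0.93 at 40 min and -1.05 at 60 min (SE 0.18, limma adjusted p = 0.000309). PAU15, with 1 protein-coding gene between it and the end, read 162, 213, 164 and 137 at 0 min and 73.4, 87.7, 70.1 and 72.7 at 60 min in GAL-NMD2. The 20 nmd2D arrays lay between 156 and 253. Its interaction was log2 -1.02 at 40 min and -1.02 at 60 min (SE 0.20, adjusted p = 0.00135). For both genes the groups at 60 min were separated by a gap wider than the range of the GAL-NMD2 values, and both calls at 60 min held under all 18 alternatives.

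PAU17, PAU4 and PAU3 fell to below the nmd2D range as well. PAU17 read 378, 426, 465 and 424 at 0 min and 133, 216, 209 and 170 at 60 min in GAL-NMD2, and 294, 544, 379 and 476 in nmd2D at 60 min. Its mean at 60 min was 43% of that in nmd2D, and the interaction was log2 -1.10 (SE 0.25, limma adjusted p = 0.00687). PAU4 read 382, 510, 541 and 545 at 0 min, 159, 291, 262 and 275 at 60 min, and 444, 593, 612 and 577 in nmd2D at 60 min. This is 44.3% of the nmd2D mean, with an interaction of log2 -1.07 (SE 0.26, adjusted p = 0.0119). Replicate 1 was the lowest PAU4 array in 9 of 10 groups, in both strains alike. PAU3 read 186, 292, 225 and 245 at 0 min, 111, 138, 93 and 109.8 at 60 min, and 219, 302, 244 and 307 in nmd2D at 60 min, and the interaction was log2 -0.86 (SE 0.20, adjusted p = 0.00847). These interaction calls were lost after median centring, where the highest adjusted p among the 3 genes was 0.103 for PAU3. PAU3 also lost the call with quantile normalization, in a fit of only the groups compared and with GAL-NMD2 replicate 3 left out, and PAU4 once nmd2D replicate 2 or 4 was left out. The difference between strains at 60 min was called for the 3 genes under all 18 alternatives.

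PAU16 and PAU10 were called lower too, but less firmly in the fit without the replicate block. PAU16, like PAU19 an outermost gene, read 318, 416, 417 and 211 at 0 min and 155, 196, 134 and 140.3 at 60 min in GAL-NMD2, whereas the nmd2D arrays of 60 min read 319.5, 456, 363 and 351 (interaction log2 -0.91, SE 0.26, limma adjusted p = 0.0367). Its replicate 4 was already low before galactose, at 211 in GAL-NMD2. PAU10 read 267, 399, 328 and 400.3 at 0 min, 126, 176, 153 and 205 at 60 min, while nmd2D had 238, 359.7, 392.1 and 394 at that time (log2 -1.05, SE 0.31, adjusted p = 0.0443). Replicate 1 was its lowest array in 10 of 10 groups. For each of both genes the interaction call was lost in 11 of 18 alternatives, where the adjusted p reached 0.237 for PAU16 and 0.243 for PAU10. Leaving out any 1 of 7 cultures ended the call of PAU16 (all but GAL-NMD2 replicate 4), and any 1 of 6 that of PAU10 (all but replicate 1 of either strain). With the replicate block the limma adjusted p of the interaction was 0.00106 for PAU16 (SE 0.19) and 3.24e-05 for PAU10 (SE 0.17). The strain difference of both genes at 60 min kept its call under all 18.

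PAU13 and PAU23 were not called for the interaction in the fit without the replicate block. PAU13 read 310.5, 568, 472 and 589.5 at 0 min and 108, 202, 176 and 261 at 60 min in GAL-NMD2, and 323, 466, 479 and 446 in nmd2D at 60 min. The fitted interaction of log2 -1.15 had an SE of 0.38 (limma adjusted p = 0.0934, and 0.00106 with the replicate block). PAU23, once named DAN2, read 1262, 1217, 1268 and 1334 at 0 min and 697, 942, 805 and 759 at 60 min in GAL-NMD2, and 1149, 1546, 1346 and 1513 in nmd2D at 60 min. It kept 57.7% of the nmd2D mean, with an interaction of log2 -0.74 (adjusted p = 0.0691, and 0.0109 with the block). Its strain difference at 60 min was called (log2 -0.78, adjusted p = 0.000695) but not after median centring (log2 -0.52, adjusted p = 0.0548). Its highest GAL-NMD2 value at 60 min still lay below all 20 nmd2D arrays, whose lowest read 1123.

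**Figure D1:**
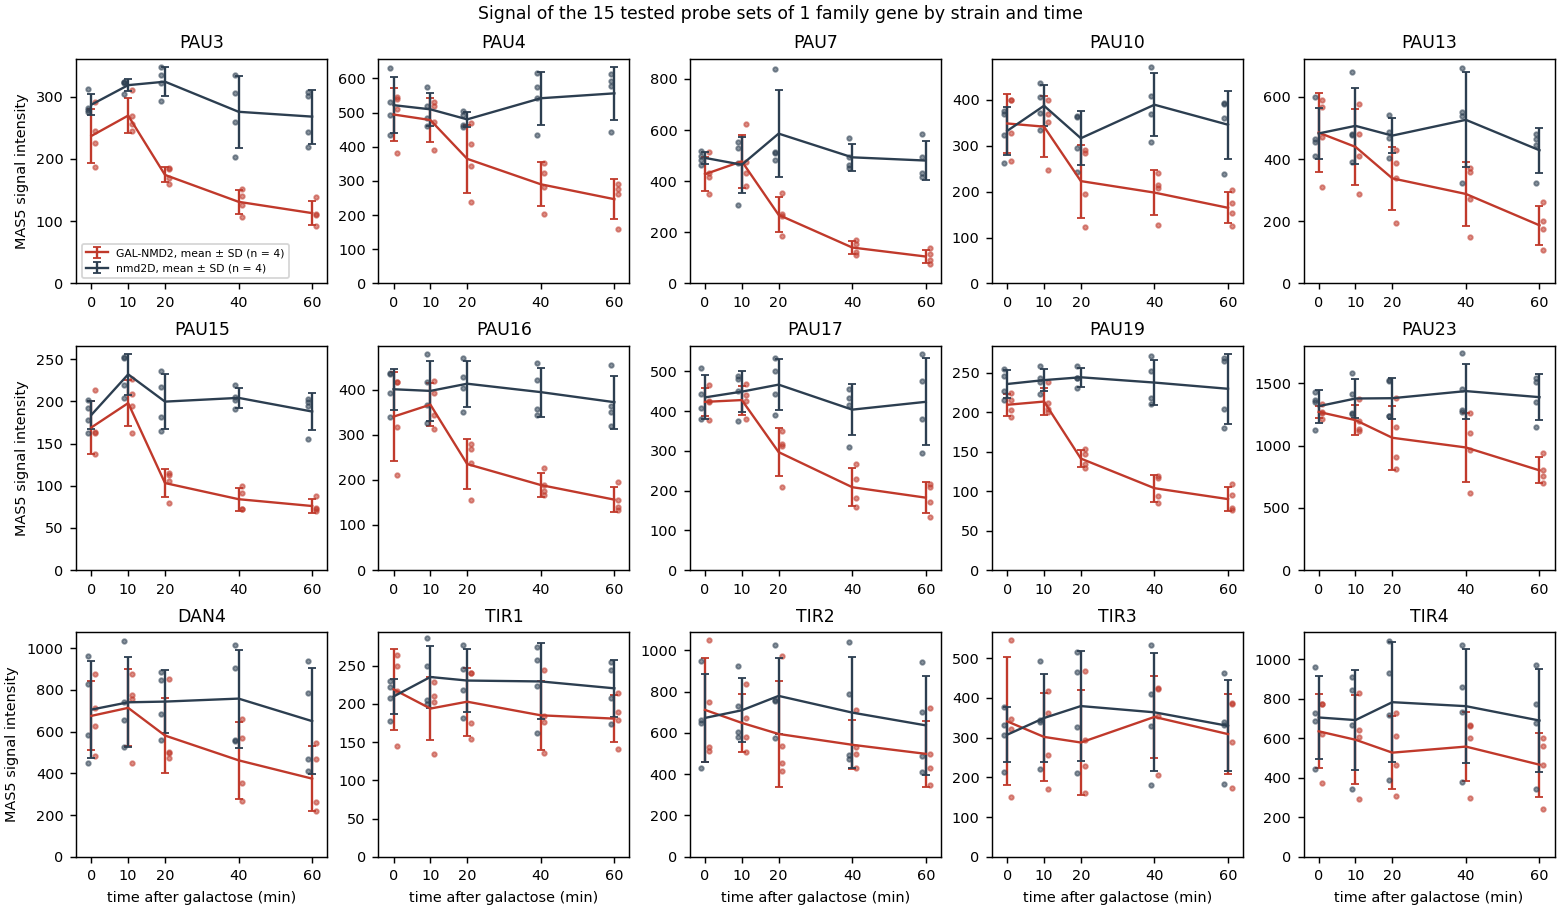
MAS5 signal intensity (vertical axis, linear, starting at 0) against time after galactose (horizontal axis, min) for the 15 tested probe sets of 1 gene. Lines and bars give mean ± SD of 4 replicates in GAL-NMD2 (red) and nmd2D (dark blue), and points, shifted sideways by 1 min, give the replicates. The ranges of the strains lie apart in 10 of 10 PAU panels at 60 min (13.8% of all probe sets) and in 9 at 40 min (10.3% of all). In the DAN4 and TIR panels they overlap at every time, although the DAN4 means at 60 min are 375 in GAL-NMD2 and 651 in nmd2D.

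For all 10 PAU genes with a probe set of their own, the 4 GAL-NMD2 values at 60 min lay below the 4 nmd2D values of that time. They also lay below all 20 nmd2D values of the course, for which the share of all probe sets was not counted. Over the 22 PAU probe sets the groups at 60 min did not overlap in 18, where 13.8% of all probe sets had every GAL-NMD2 value below every nmd2D value. Compared within replicate numbers, all 22 were lower in GAL-NMD2 in 4 of 4 replicates at 60 min, and here too the share of all probe sets was not counted. The median over PAU probe sets was log2 -0.96 in replicate 1, -1.03 in replicate 2, -1.27 in replicate 3 and -1.07 in replicate 4. At 0 min the corresponding medians were -0.14, 0.04, -0.15 and -0.07, and in 0 PAU probe sets did all GAL-NMD2 values lie below all nmd2D values (0.364% of all probe sets). Only 4 of 22 were then lower in 4 of 4 replicates. In bulk cultures a lower signal can come from fewer cells with the RNA or from less RNA per cell, which cannot be told apart.

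The 12 probe sets shared by several PAU genes were all lower in GAL-NMD2 at 60 min, and several of them are annotated to the same genes. Their strain difference at 60 min was called lower in 12 of 12 (11.9% of all probe sets), from log2 -1.59 to -0.63, and their interaction in 4 of 12 (3.91% of all). Besides the PAU7 and PAU5 probe set, the called ones were 2 annotated to PAU1, PAU6, PAU14, PAU18 and PAU20 (log2 -0.97 and -0.98) and 1 annotated to PAU9, PAU12 and PAU24 (log2 -0.996, adjusted p = 0.0399). The probe set of PAU2 and PAU9 had log2 -1.04 with an SE of 0.36 and missed the threshold (adjusted p = 0.119, and 0.00106 with the replicate block). The 5 probe sets annotated to 7 or 8 genes each, all of which include PAU8, PAU9, PAU10, PAU11 and PAU13, ranged from log2 -0.95 to -0.60, and 0 of them was called by limma without the block. With the block, where 9.7% of all probe sets were called lower, 4 of these were called, all but 1 of the 2 annotated to 8 genes (adjusted p = 0.0543). The dimmest, annotated to PAU19, PAU21 and PAU22, read 38.4, 30.5, 29.5 and 29.3 at 0 min and 16.3, 22.4, 8.4 and 20.9 at 60 min in GAL-NMD2, and 34.3, 35.2, 31.5 and 45.3 in nmd2D at 60 min. Its fitted strain difference of log2 -0.69 is held down by the added 16. In signal, its mean at 60 min was 46.5% of that in nmd2D.

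**Figure D2:**
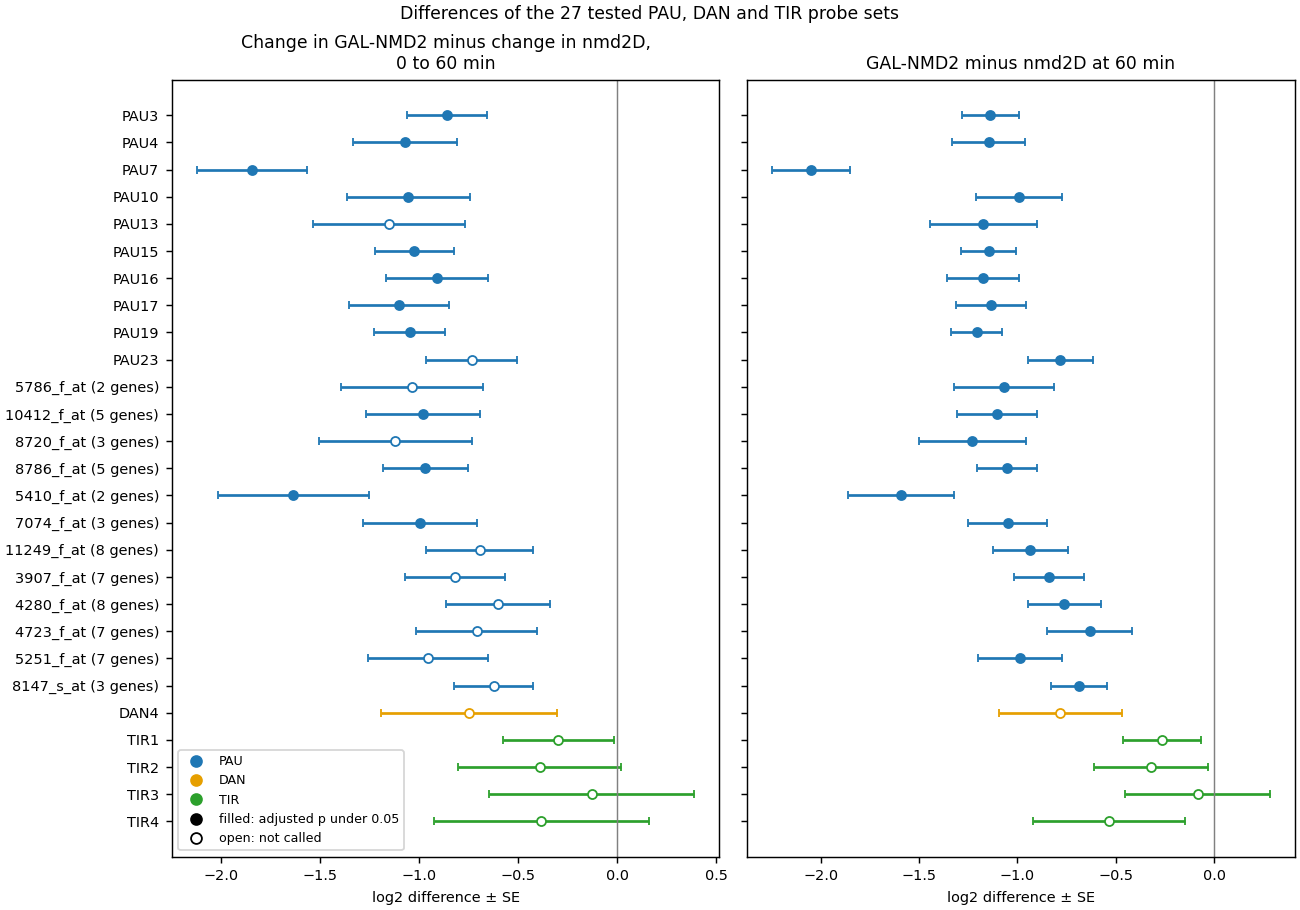
Log2 differences ± SE (horizontal axes) of the 27 tested probe sets (rows, with the number of annotated genes where there are several), as the interaction from 0 to 60 min (left) and as GAL-NMD2 minus nmd2D at 60 min (right). Filled points passed limma's adjusted p of 0.05 in the fit without the replicate block, which ignores the pairing of same-numbered arrays. On the right all 22 PAU probe sets are filled, while DAN4 and the 4 TIR genes are open on both sides. With the block, DAN4 and TIR4 were called lower between the strains at 60 min (limma adjusted p = 0.00167 and 0.00447), beside 20.1% of all probe sets.

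Differences between the strains were first called at 20 min. At 10 min limma called 0 of the 27 tested members between the strains, and 0 had an unadjusted p under 0.05 (1.23% of all probe sets had one and 0% were called lower). The replicate block also gave 0 members, and 0.0404% of all probe sets. In 1 PAU probe set all 4 GAL-NMD2 values then lay below all 4 nmd2D values (0.31% of all). The interaction at 10 min likewise gave 0 calls, with or without the replicate block, and 0 members at an unadjusted p under 0.05 (0.795% of all, with 0% called lower). At 20 min 5 PAU genes were lower in GAL-NMD2, where 0.472% of all probe sets were: PAU7 with log2 -1.08, PAU15 with -0.85, PAU3 with -0.84, PAU16 with -0.80 and PAU19 with -0.73. The first place of PAU7 leans on nmd2D replicate 1, which read 839.3. Its differences were log2 -2.09, -0.87, -0.92 and -0.44 in replicates 1 to 4. With the block 18 members were called (5.46% of all), TIR2 and TIR4 among them. The replicate numbers do not pair all samples at this time, as r was above 0.1 in 3 of 4 pairs of arrays. A fit of only the 8 arrays of that time called 0 members, and the count stayed at 5 without the replicate 2 array that stood apart. All 4 GAL-NMD2 values lay below all 4 nmd2D values in 14 PAU probe sets at 20 min (2.76% of all probe sets). The interaction at 20 min was below 0 in all 22 PAU probe sets (median log2 -0.51), but limma called 0 of the members, as it did with the block, and 7 had an unadjusted p under 0.05 (1.58% of all, with 0.0135% called lower). By 40 min 21 of 22 PAU probe sets were called lower between the strains (7.96% of all), and their groups did not overlap in 17 (10.3% of all). For the interaction 4 were called at 40 min (1.5% of all), and 20 with the replicate block (6.64% of all). Over PAU probe sets the median strain difference was log2 -0.07 before galactose. It was -0.19, -0.54, -0.93 and -1.09 at the later times in order.

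**Figure D3:**
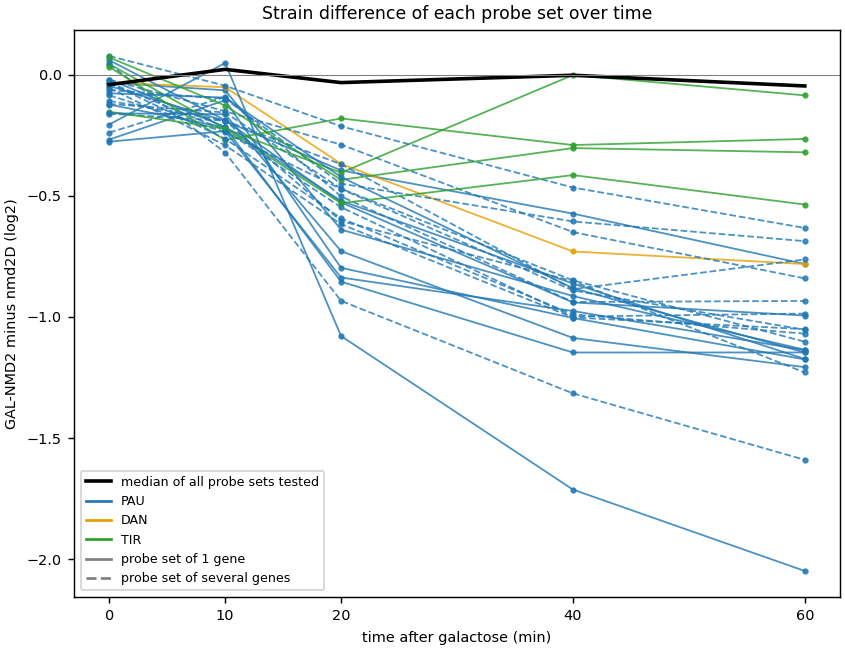
GAL-NMD2 minus nmd2D (vertical axis, log2) against time after galactose (horizontal axis, min) for each of the 27 tested probe sets, with PAU in blue, DAN4 in orange and TIR in green, and broken lines for probe sets of several genes. The black line is the median of all 7420 probe sets, which stays between -0.05 and 0.02, while the PAU lines bend down from 20 min on, PAU7 the farthest.

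In nmd2D, which had galactose without NMD2, no change of the family was detected. There limma called 0 of the 27 members between 0 and 60 min, with or without the replicate block, and 0 had an unadjusted p under 0.05 (4.77% of all probe sets had one, 0.0809% were called lower and 1.08% with the block). The PAU changes there ranged from log2 -0.17 to 0.15. Within GAL-NMD2 all 22 PAU probe sets fell over the hour, where 10.3% of all probe sets did, with a median of log2 -1.001. The comparison within GAL-NMD2, that between the strains at 60 min and the interaction share the GAL-NMD2 arrays at 60 min, so they are not independent of each other. Likewise the strains before galactose gave 0 calls among the members (limma; with the block also 0, and 0.0404% of all probe sets), 0 at an unadjusted p under 0.05 (1.98% of all) and 0% of all called lower.

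TIR genes did not pass the test in any comparison of the fit without the replicate block. TIR1, a serine-rich cell wall mannoprotein of the cold-shock response, read 214, 179, 140.5 and 189 at 60 min in GAL-NMD2, and the nmd2D arrays read 208, 255, 174 and 244 (log2 -0.26, SE 0.20, limma adjusted p = 0.543). TIR2, a close relative, read 431, 496, 349 and 718 with NMD2 and 413, 702, 487 and 943 without it (log2 -0.32, SE 0.29, adjusted p = 0.662). In both genes the strains overlap, and replicate 4 is the highest TIR2 array in 10 of 10 groups. TIR3, a cell wall mannoprotein needed for anaerobic growth, read 387, 290, 173 and 384 in GAL-NMD2 against 340.1, 332, 184 and 463 without NMD2 (log2 -0.08, SE 0.37, adjusted p = 0.958), and this difference turned to 0.17 after median centring and 0.053 after quantile normalization. TIR4, a further cell wall mannoprotein of anaerobic cells, read 560.2, 601, 239 and 465 with NMD2 and 676, 773, 342 and 969 without it (log2 -0.54, SE 0.38, adjusted p = 0.515). The block led to TIR4 being called lower at 60 min (adjusted p = 0.00447), as it was at 40 min (adjusted p = 0.0365). The blocked fit called 20.1% and 15.8% of all probe sets lower at these times, so 1 of 4 TIR genes is near the background there. At 20 min it called 2 of the 4, TIR2 and TIR4 (adjusted p = 0.0472 and 0.0184), beside 5.46% of all probe sets. The replicate numbers did not pair all samples at that time. Within GAL-NMD2 over the hour the block called TIR4 and TIR2 lower (adjusted p = 0.0163 and 0.00708), beside 18.8% of all probe sets.

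Before galactose the TIR means in GAL-NMD2 were 219 ± 52.9 for TIR1, 711 ± 250.2 for TIR2, 341 ± 161 for TIR3 and 636 ± 188 for TIR4. The nmd2D means were 209.6 ± 23.2, 672 ± 213, 307 ± 69.9 and 706 ± 210.5 in the same order, within the spread of replicates. The TIR interactions at 60 min were log2 -0.30 for TIR1, -0.39 for TIR2, -0.13 for TIR3 and -0.38 for TIR4, with SE of 0.28, 0.41, 0.52 and 0.54. The block brought these SE to 0.17, 0.19, 0.23 and 0.20, and 0 of the 4 interactions was called with it (lowest adjusted p = 0.28, for TIR2). After median centring the TIR3 interaction was 0.043. The difference between the PAU and TIR changes was not tested.

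DAN4 and DAN1, cell wall mannoproteins of anaerobic cells that neighbour each other in the R64 order, differed in what could be measured. DAN4 read 626, 878, 484 and 716 at 0 min and 264, 544, 222 and 469 at 60 min in GAL-NMD2, and 409.8, 941, 468 and 784 in nmd2D at 60 min. Replicates 2 and 4 were high and replicates 1 and 3 low in both strains at 60 min, so the strains overlap although each replicate was lower in GAL-NMD2. The strain difference of log2 -0.78 was not called (SE 0.31, limma adjusted p = 0.112). In the blocked fit, where 20.1% of all probe sets were called lower, its adjusted p was 0.00167. It was also called when GAL-NMD2 replicate 2 or nmd2D replicate 1 was left out. The interaction was log2 -0.75 (adjusted p = 0.689, and 0.0741 with the block). DAN1 stayed between 1.2 and 17.4 on all 40 arrays, below the filter on dim signal, and was not tested. It is the only one of the 28 probe sets that failed the filter.

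Where the variation lay differed between the groups of genes. On the log2 scale, strain, time and their combination held 48.3% to 92.5% of the sum of squares over 40 arrays in PAU probe sets (median 72.1%), 40.2% in DAN4 and 5.93% to 20.2% in TIR genes (median 18.0%). The replicate number, shared by both strains and all times, held a median of 15.4% in PAU probe sets, 39.6% in DAN4 and 70.1% in TIR genes. Replicate 3 was the lowest TIR4 array in 10 of 10 groups, the lowest TIR3 array in 9 and the lowest TIR1 array in 8. Replicate 1 was the lowest PAU17 array in 9 groups and the lowest PAU13 array in 8. The labels do not say what a replicate number shares, and what lies behind these levels was not tested. Deviations from the group means had a median Pearson r of 0.77 over the 6 pairs of TIR genes, 0.52 over the 45 pairs of PAU genes with their own probe set, and 0.08 over the 40 pairs of a PAU and a TIR gene. The points are the same 40 arrays, and PAU probe sets also share sequence. DAN4 correlated with both, with medians of 0.52 for TIR and 0.52 for PAU genes.

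**Figure D4:**
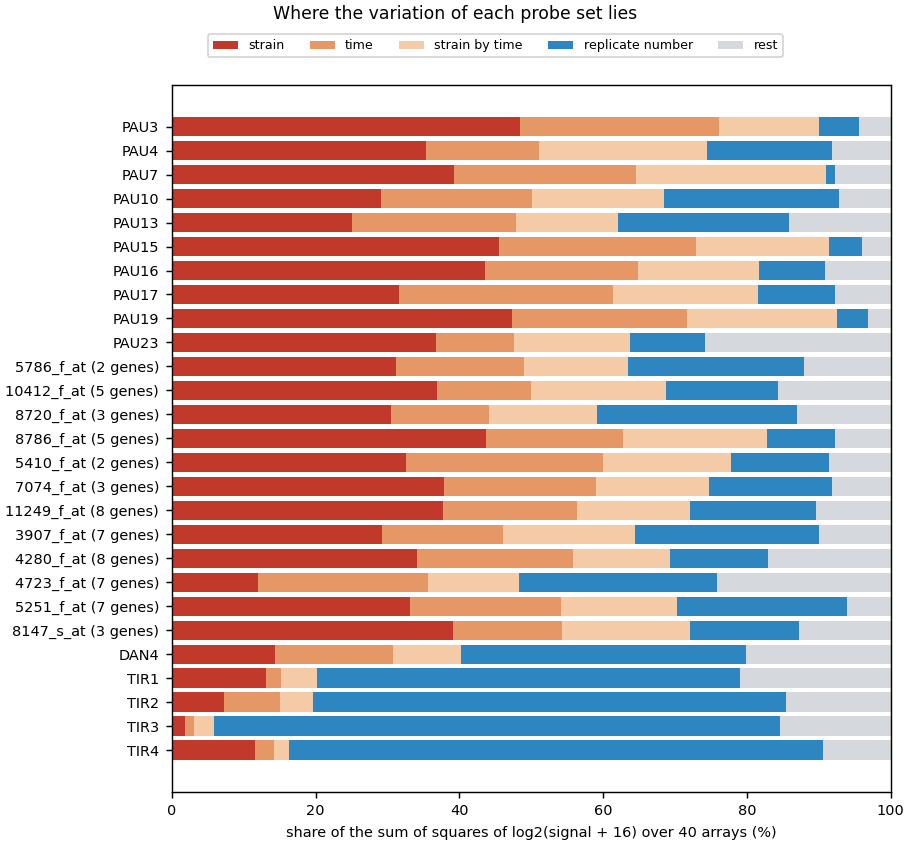
Share of the sum of squares of log2(signal + 16) over the 40 arrays (horizontal axis, %) that lies in strain, time, strain by time (reds), replicate number (blue) and the rest (grey), for the 27 tested probe sets (rows). The red part is between 48.3% and 92.5% in PAU rows, and the blue part between 58.8% and 78.7% in TIR rows.

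Place on the chromosome was compared by gene order alone. Most PAU genes are among the 10 outermost protein-coding genes of a chromosome end, but PAU17 has 38 such genes between it and the end, PAU23 has 99, PAU7 has 14, PAU5 has 45 and PAU2 has 29. Of the PAU genes with their own probe set, the 7 within the outermost 10 had a median interaction of log2 -1.05 and the 3 further in (PAU7, PAU17 and PAU23) a median of -1.10. These 3 were log2 -1.84, -1.10 and -0.74, the largest and the smallest of the 10 genes among them. Other genes within the outermost 10, with 213 probe sets tested, had a median interaction of log2 -0.35, and 14.1% were called lower, while 2.94% of the remaining 5615 probe sets of 1 gene were. This grouping by place was chosen after the PAU values were seen, and it was not tested. TIR3, with a fitted interaction of log2 -0.13, has 1 protein-coding gene between it and EST3, a telomerase subunit gene whose interaction was log2 -1.73 (limma adjusted p = 1.01e-05).

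A list of regulators of anaerobic and sterol genes holds some that are known to control the family. Of its 12 tested genes 0 was called for the interaction at 60 min in either direction by limma, with or without the replicate block. Their median was log2 0.03. ROX1, the repressor of hypoxic genes, read 63 ± 17.8 at 60 min in GAL-NMD2 where nmd2D read 59.8 ± 11.6, and TUP1 read 445 ± 138 and 473 ± 79.6. UPC2, the activator of DAN and TIR genes, was below the filter, at 11.2 ± 8.66 and 10.1 ± 2.76. The shares of all probe sets called lower for this interaction, 3.91% and 9.7% with the block, are the background for the lists. The 0 of 12 regulators is near that background. Of 15 other hypoxic genes 1 fell (2 with the block), which is near that background. It was PDR11, a sterol importer, from 196 ± 32.2 to 86.5 ± 16.5 in GAL-NMD2, while nmd2D had 167 ± 35.1 at 60 min (interaction log2 -1.03, SE 0.27, limma adjusted p = 0.019). AUS1, the other sterol importer and the neighbour of TIR2, had an interaction of log2 -0.99 and was called only with the block (adjusted p = 0.426, and 0.00167 with it). The list median of log2 0.09 was close to that of all probe sets.

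In the sterol synthesis list 0 of 22 genes was called for the interaction in either direction, by limma or with the block. This too is near the background, and the median was log2 0.16. Of 21 tested cell wall mannoprotein genes outside the family 1 fell, near the 3.91% of all probe sets. It was the flocculin gene FLO11, from 324 ± 85.2 to 140.2 ± 41.8 in GAL-NMD2, while nmd2D had 306 ± 51 at 60 min (interaction log2 -1.16, SE 0.32, limma adjusted p = 0.0291). With the block 4 fell, where 9.7% of all probe sets did, and the list median was log2 0.11. The lists were chosen with earlier results of these data known, so their counts are no test of a list as a set. Of 13 tested silencing and telomere factors 4 fell, beside 3.91% of all probe sets. These were EST3, STN1, TEN1 and EST1, which serve telomerase or cap the chromosome end, with log2 -1.73, -1.79, -1.36 and -1.20. With the block 5 fell, beside 9.7% of all, the fifth being the telomerase gene EST2 (log2 -0.75, adjusted p = 0.297, and 0.0339 with the block). The silencing gene SIR2 read 109 ± 23.9 at 60 min in GAL-NMD2 where nmd2D read 125 ± 25.1, with an interaction of log2 -0.13 that was not called. Between the strains at 60 min 7 of the 13 were called lower, beside 11.9% of all probe sets. The block also gave 7, beside 20.1% of all. YKU70 and YKU80 were among them (log2 -0.52 and -0.45, limma adjusted p = 0.0132 and 0.0384), though their interactions were not called. The list median of the interaction was log2 -0.33. The medians of these lists stand beside -0.01 over all probe sets and -0.99 over the PAU probe sets.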

How the data were processed

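RNA of 40 yeast samples was hybridised to Affymetrix arrays. The authors summarised each probe set as an intensity with MAS5, per the submitters' processing notes, and no version or settings were given. The authors' deposited intensities are linear, with a trimmed mean (middle 96%) of 249.9 on every array, so each was scaled. No arrays were identical. The number of arrays limits the precision.

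Of 9275 probe sets that are not controls, 6504 have 1 symbol, 328 several and 2443 none. All 30 member genes matched the R64 gene table by identifier. That table served for names and gene order only. Computed here were log2(intensity + 16), a filter at the 20th percentile of its mean (7420 kept), and 1 limma 3.58.1 fit in R 4.3.3 of 10 group means over 40 arrays (lmFit, eBayes with trend, Benjamini-Hochberg over all probe sets, called under 0.05). Lists use the brightest probe set of each gene. The script was tested on simulated data. Members, lists and the rule for named genes (all members, with values per replicate for those of 1 gene; list genes called, at most 4 a list, and regulators; STN1, TEN1, EST1 and EST3 come in so) were chosen with earlier results of these data known. SIR2, YKU70, YKU80, AUS1, EST2 and the values of the dimmest shared probe set lie outside that rule and were chosen with their values in view.

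The labels give the replicate numbers. Deviations from group means of same-numbered arrays correlated at r above 0.1 in every pair for the comparisons at 0, 10, 40 and 60 min. There the numbers were taken to pair the samples. At 20 min neither comparison had r above 0.1 in every pair (lowest r 0.07 between the strains). The main fit leaves the pairing out at all times, and only the replicate block takes it in. Alternatives were pseudocounts of 1 and 64, no filter and the 40th percentile, median centring, quantile normalization and the replicate block. Others were a fit of only the groups compared, no trend, and leaving out each culture in turn. A culture means all arrays of a strain with the same replicate number, which the labels do not say share a culture. Leaving out the GAL-NMD2 replicate 2 array at 20 min was added after seeing the data.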

Additional observations from a re-analysis of the deposited data

Results flagged for a closer look

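Single values far from the 3 others of their group were found in 5 of the 160 groups of 4 examined (probe sets of 1 gene), and chance alone gives about 1 in 20. PAU3 read 312.5 in replicate 2 of nmd2D at 0 min, against 276.2 to 281.5 in the others. It read 303.9 in replicate 1 of nmd2D at 10 min, against 322.1 to 324.4. PAU7 read 839.3 in replicate 1 of nmd2D at 20 min, against 482.5 to 513.7, and this value raises the nmd2D mean of that time. DAN1 read 17.4 in replicate 1 of GAL-NMD2 at 10 min, against 8.9 to 10.2, all dim. DAN4 read 853.2 in replicate 4 of GAL-NMD2 at 20 min, against 475.3 to 501.2.

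The change since 0 min differed between the strains by limma's test of the difference itself (adjusted p under 0.05) for 3 genes with their own probe set at 40 min and 8 at 60 min. At 40 min the log2 difference of the changes was -1.51 for PAU7, -1.02 for PAU15 and -0.93 for PAU19. At 60 min it was -1.84 for PAU7, -1.10 for PAU17, -1.07 for PAU4, -1.05 for PAU10, -1.05 for PAU19, -1.02 for PAU15, -0.91 for PAU16 and -0.86 for PAU3.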

How the results depend on the processing

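Every call among the members was a fall, under each alternative run. The number called between the strains at 60 min (22) ranged from 18 to 24 over the alternatives, and at 40 min (21) from 15 to 24. For the interaction at 60 min (12) median centring gave 4, quantile normalization 7 and the replicate block 21. Leaving out 1 culture gave 6 to 14, with 6 without GAL-NMD2 replicate 3 or nmd2D replicate 2. At 40 min (4) the block gave 20 and leaving out 1 culture 3 to 6. For the strains at 20 min (5) the block gave 18, a fit of only the groups compared gave 0, and leaving out 1 culture 4 to 5. The replicate numbers did not pair all samples at 20 min. For the response within GAL-NMD2 (22) leaving out 1 culture gave 15 to 22, lowest without GAL-NMD2 replicate 3. Comparisons with 0 members called stayed at 0 under each alternative. Shares of all probe sets called are given above for the main fit and the replicate block only, so the other counts have no background beside them. Of the members with their own probe set, TIR3 turned its sign: its interaction at 60 min was 0.043 after median centring and -0.21 to 0.0089 when 1 culture was left out (above 0 for GAL-NMD2 replicate 4). Its strain difference was 0.17 after median centring, 0.053 after quantile normalization and -0.33 to 0.15 when 1 culture was left out (above 0 for GAL-NMD2 replicate 3, and 0.095 for nmd2D replicate 4). The cause was not tested. Dim signal limits DAN1, and shared sequence limits the assignment of signal to single PAU genes.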
